A study of Mus musculus with 8 samples.

Results

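Expression of 8 genes of the death receptor and caspase pathways was followed in haematopoietic stem cells that lack ADAR1, an enzyme that edits adenosine to inosine in double-stranded RNA. They are the receptors Fas and Tnfrsf10b, the ligand Tnfsf10, the caspases Casp1, Casp4 and Casp12, and the regulators Daxx and Xaf1. They were chosen by symbol, and the array annotation assigns 13 probe sets to these 8 genes alone, of 45037 probe sets and 18193 genes tested. The cells were Lin-Sca+Kit+ cells sorted from fetal liver of C57/B6 mice, 1 mouse to an array, with no treatment named in the labels. The groups were ADAR1 -/- (KO, 3 arrays), ADAR1 +/- (HT, 3 arrays) and wild type (WT, 2 arrays); HT and WT together are called the 5 controls. The sources used here name neither the deleted exons, nor the means of deletion, nor the embryonic age.

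Death receptors such as Fas, and the receptor for TRAIL that mouse Tnfrsf10b encodes, sit on the cell surface and, once bound by their ligands, assemble a complex that activates initiator caspases. Casp1, Casp4 (also called caspase-11 in the mouse) and Casp12 belong to the inflammatory caspases, which act in inflammasomes and lytic cell death rather than in classical apoptosis. Several genes of these families are known targets of interferon, among them Tnfsf10, Daxx and Xaf1.

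The values are linear intensities, and the background of an array is the highest reading among 27 control probe sets for Bacillus transcripts on it. It was 9.29, 7.40 and 8.21 units on KO arrays 1 to 3, and 6.20 to 8.15 units on the control arrays. Arrays correlated at 0.864 to 0.887 across probe sets within KO, 0.969 to 0.973 within HT and 0.915 within WT. The brightest Adar probe set read 59.7 to 176 units in KO and 7.66 to 17.6 units in the controls; since the deleted exons are not named, it does not check the labels. Of 6 stem and progenitor markers with a probe set of their own, 3 were above background on every KO array and 4 on every control array, and Kit, on which the cells were sorted, read 9.33 to 13.3 units in KO and 11.7 to 23.5 units in the controls. RNA came from pools of cells, so fewer cells of a type and less RNA per cell cannot be told apart.

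The promoters of 3 of the genes are shown because these 3 were higher on every KO array than on every control array. Each runs from 250 bases before to 50 bases after the annotated start (RefSeq, GRCm38.p6, 5′ to 3′ on the gene's strand). Capitals mark AANNGAAA, the core that interferon regulatory factors bind, which reads TTTCNNTT where it lies on the opposite strand.
Xaf1, chr11:72301379-72301678, plus strand: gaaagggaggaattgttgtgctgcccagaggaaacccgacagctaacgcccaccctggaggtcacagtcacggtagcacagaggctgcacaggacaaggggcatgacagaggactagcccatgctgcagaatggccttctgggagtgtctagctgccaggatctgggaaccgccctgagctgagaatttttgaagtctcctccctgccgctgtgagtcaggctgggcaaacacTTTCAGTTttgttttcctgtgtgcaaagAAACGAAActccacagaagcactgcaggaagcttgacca
Tnfsf10, chr3:27316827-27317126, plus strand: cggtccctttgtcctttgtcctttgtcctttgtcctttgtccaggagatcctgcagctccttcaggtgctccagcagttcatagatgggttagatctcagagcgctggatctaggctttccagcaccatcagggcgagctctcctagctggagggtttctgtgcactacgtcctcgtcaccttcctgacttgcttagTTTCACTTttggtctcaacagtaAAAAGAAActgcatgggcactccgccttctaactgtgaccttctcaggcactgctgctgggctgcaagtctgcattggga
Daxx, chr17:33909195-33909494, plus strand, the first of 3 annotated starts: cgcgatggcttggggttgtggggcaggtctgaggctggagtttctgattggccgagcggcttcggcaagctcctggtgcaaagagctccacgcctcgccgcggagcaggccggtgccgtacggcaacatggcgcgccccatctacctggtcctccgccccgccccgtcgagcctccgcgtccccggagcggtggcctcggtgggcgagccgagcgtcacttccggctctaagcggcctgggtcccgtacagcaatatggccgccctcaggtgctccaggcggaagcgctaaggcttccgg
The Xaf1 window held 2 matches, at positions 12 to 19 after the start and at -17 to -10 before it. The Tnfsf10 window also held 2, at -30 to -23 and at -53 to -46. The Daxx window held 0. On either strand, AANNGAAA was found in 23.9% of 32851 promoter windows of this length, and in 5 of the 7 genes that the table holds: besides Xaf1 and Tnfsf10 these were Casp4, Casp12 and Fas, of which Fas and Casp12 were not above background on any array. The longer core of an interferon-stimulated response element, GAAA repeated after a gap of 2 bases of any kind, contains AANNGAAA and was in 3.44% of windows and in 0 of the 7 genes. TTCNNNGAA, the core of a gamma-activated site, was in 8.30% of windows and in 2 of the 7, Casp12 and Fas. These shares count windows, whereas a gene was counted if any of its windows matched. Casp4 had 2 windows and Daxx 3, so shares of windows and counts of genes are not strictly alike.

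Xaf1 was the member that rose in KO cells, and Daxx and Tnfsf10 were higher in every KO array without passing the test against either control group. The call was an adjusted p under 0.05 by limma, a linear model that shares its estimate of the spread over probe sets, with each gene represented by its brightest probe set. By this rule 1 of 8 genes, Xaf1, rose against WT, where 0.39% of all genes rose, and again 1 of 8 against HT (0.456% of all genes) and 1 of 8 against all controls (0.555%); 0 of 8 fell in any of the 3. At an unadjusted p under 0.05, Xaf1, Daxx and Tnfsf10 were higher, 3 of 8 in each comparison, against 3.37%, 5.12% and 5.51% of all genes in the comparisons with WT, HT and all controls. The same 3 genes had every KO array above every control array, as had 4.19% of all genes. The median difference over the 8 genes was 0.55 log2 units against WT, 0.70 against HT and 0.60 against all controls, beside medians of -0.00013, 0.06 and 0.03 over all 18193 genes. These comparisons share the KO arrays, and the last shares its controls with the other two.

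**Figure D1:**
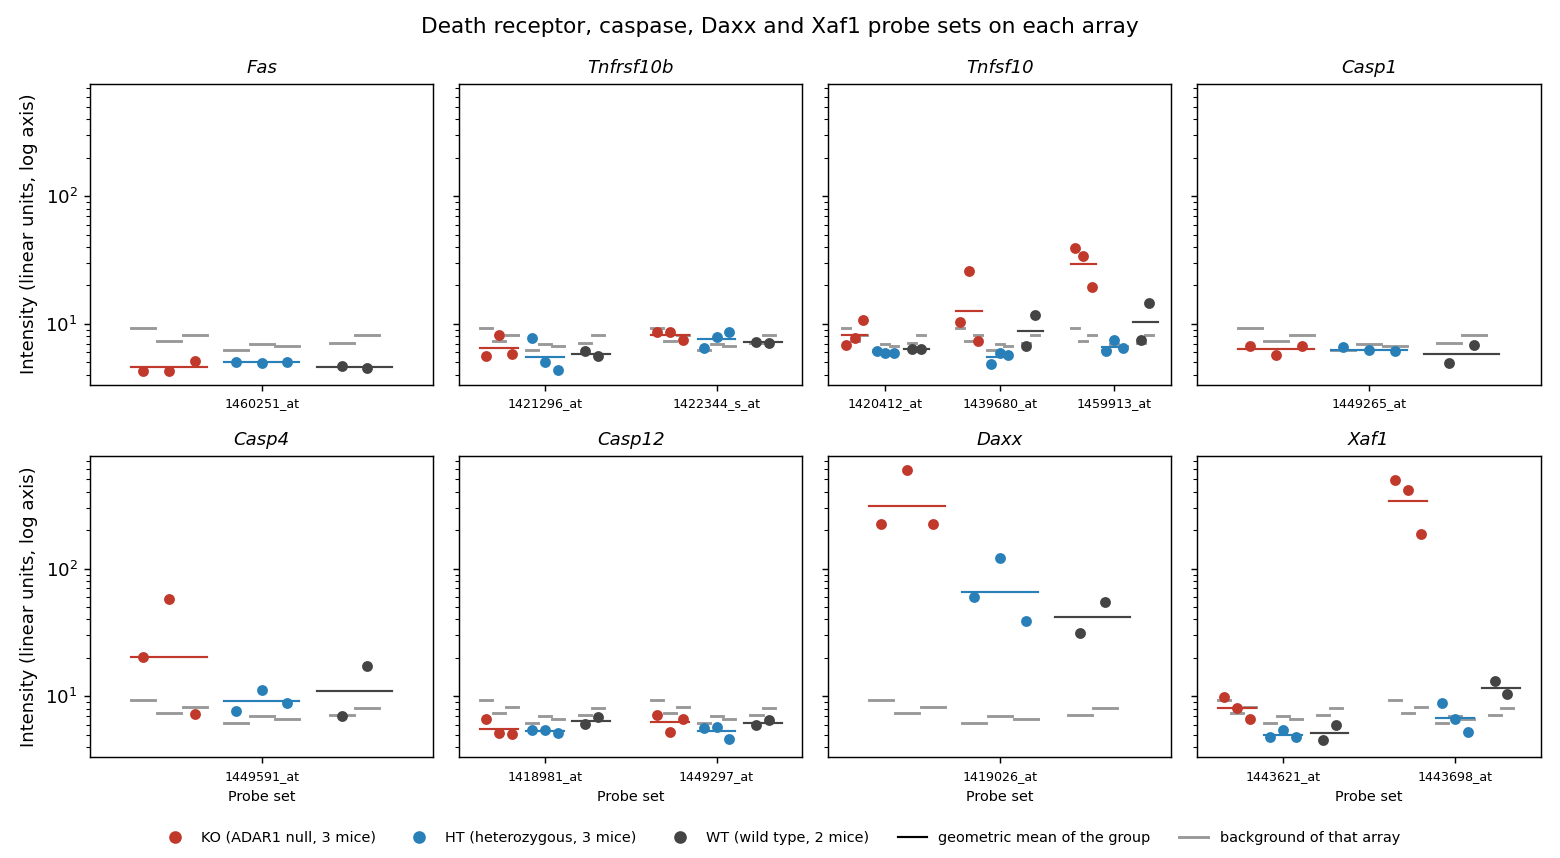
Intensity of each probe set (linear units on a log axis) on each of the 8 arrays, with KO, HT and WT from left to right within a probe set. Points are mice, coloured bars are geometric means of the group and short grey bars are the background of that array. The Xaf1 probe set 1443698_at reads 187 to 492 units in KO and 5.24 to 13.2 units in the controls, while Fas and Casp12 lie at or below background on every array.

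Xaf1 encodes a binding partner of the caspase inhibitor XIAP that counteracts it. Its brightest probe set, 1443698_at, read 492, 411 and 187 units on the KO arrays, against 8.90, 6.66 and 5.24 units on the HT arrays and 13.2 and 10.4 units on the WT arrays. The groups were far apart: the dimmest KO array was 14.2-fold above the brightest control array, and both WT arrays but only 1 of 3 HT arrays were above background. The mean log2 intensity was 8.39 ± 0.74 in KO (SD, n = 3), 2.76 ± 0.38 in HT (SD, n = 3) and 3.55 ± 0.25 in WT (SD, n = 2). KO exceeded WT by 4.84 ± 0.44 log2 units (SE), or 28.6-fold, with an adjusted p of 0.0109 (limma). Against HT the difference was 5.63 ± 0.39, or 49.6-fold (limma, adjusted p = 0.00363), and against all controls 5.32 ± 0.40, or 39.8-fold (limma, adjusted p = 0.00123). With the HT arrays that read below background set to it, these folds were 45.1 and 37.6. The last was the 32nd largest increase among the 45037 probe sets.

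The calls against HT and against all controls held under every alternative tried, with adjusted p at most 0.0357 and 0.00782. The call against WT was lost with 32 units added before taking log2 (adjusted p = 0.0687), with the KO and WT arrays fitted alone (0.163) and without WT array 2 (0.0549), over alternatives from 0.00368 to 0.163. Adding 32 units reduced the difference from all controls to 3.18 log2 units.

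The second Xaf1 probe set, 1443621_at, gave a much smaller difference. It read 9.86, 8.13 and 6.71 units in KO, against 4.79, 5.43 and 4.80 units in HT and 4.52 and 6.01 units in WT. KO lay above all controls without overlap, but the control arrays were all at background and KO array 3 was too. Set against the background of the control arrays, the KO mean was 1.16-fold higher. That mean includes a KO reading at background, so 1.16 is not a minimum fold. The difference did not pass (limma, adjusted p = 0.161). With the mean of both probe sets, the Xaf1 difference from all controls was 3.0 log2 units (adjusted p = 0.00106).

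The 3 genes whose levels ran closest to Xaf1 over the 8 arrays were Sp100, Oas3 and Mx2. Likeness was the root mean square difference of log2 values, each gene centred on its control mean. It was 0.39, 0.47 and 0.48 log2 units for these 3 genes, against a median of 3.29 over 18192 genes. With this centring the median mostly reflects the rise of Xaf1 itself. Any gene with a rise of like size in KO would lie close to Xaf1. The control means used for centring include readings at background, for Xaf1 on 2 of 5 control arrays, so that the distances and their order rest partly on background. Sp100, a component of PML nuclear bodies, read 370, 302 and 123 units in KO and 6.37 to 7.14 units in the controls. Oas3, a sensor of double-stranded RNA, read 543, 254 and 153 units in KO and 5.40 to 7.40 units in the controls, 2 of which were above background. Mx2, an antiviral GTPase, read 482, 330 and 225 units in KO and 4.89 to 6.50 units in the controls, which were all at background, so that KO was at least 47.1-fold higher (limma, adjusted p = 5.59e-05).

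Daxx encodes a histone chaperone of PML nuclear bodies that also binds the intracellular part of Fas. Its 1 probe set read 222, 594 and 222 units in KO, against 60.4, 120 and 38.9 units in HT and 31.6 and 55.1 units in WT. Every KO array was above every control array, the dimmest by 1.85-fold over the brightest control, and HT and WT overlapped. The mean log2 intensity was 8.27 ± 0.82 in KO (SD, n = 3), 6.04 ± 0.82 in HT (SD, n = 3) and 5.38 ± 0.57 in WT (SD, n = 2). KO was higher than WT by 2.89 ± 0.62 log2 units (7.39-fold), higher than HT by 2.23 ± 0.55 (4.70-fold) and higher than all controls by 2.49 ± 0.50 (5.63-fold). None of the 3 differences passed over all probe sets (limma, adjusted p = 0.226, 0.222 and 0.0991). Against all controls it passed with cyclic loess normalization (adjusted p = 0.0451), over alternatives from 0.0451 to 0.245. Daxx was the 1 member above background on all 8 arrays.

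Tnfsf10 encodes TRAIL, the ligand of death receptors. Its brightest probe set, 1459913_at, read 39.3, 34.0 and 19.3 units in KO, against 6.10, 7.44 and 6.45 units in HT and 7.46 and 14.5 units in WT. KO did not overlap with the controls, but KO array 3 stood only 1.33-fold above WT array 2, the brightest control. The mean log2 intensity was 4.88 ± 0.54 in KO (SD, n = 3), 2.73 ± 0.15 in HT (SD, n = 3) and 3.38 ± 0.68 in WT (SD, n = 2). The difference was 1.51 ± 0.38 log2 units against WT (2.84-fold), 2.15 ± 0.34 against HT (4.45-fold) and 1.89 ± 0.34 against all controls (3.72-fold), and none passed (limma, adjusted p = 0.325, 0.0739 and 0.0720). Only 1 of 3 HT arrays was above background, and 3 of 5 controls; with the HT arrays below background set to it, the folds against HT and all controls were 4.37 and 3.68. The comparison with all controls passed without KO array 3 (adjusted p = 0.0461) or WT array 2 (0.0228), and that with HT passed without KO array 3 (0.0436). With 32 units added the difference from all controls was 0.63 log2 units, and with the mean of the 3 Tnfsf10 probe sets it was 1.08.

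The other 2 Tnfsf10 probe sets were dimmer. Probe set 1439680_at read 10.4, 26.0 and 7.29 units in KO, against 4.82, 5.92 and 5.71 units in HT and 6.71 and 11.7 units in WT. KO array 2 stood above the rest, and KO and WT overlapped (KO minus all controls, 0.92 ± 0.44 log2 units; limma, adjusted p = 0.479). Probe set 1420412_at read 6.86, 7.70 and 10.6 units in KO and 5.89 to 6.33 units in the controls, which were all at background, as was KO array 1. This probe set did not overlap between KO and the controls and did not pass (limma, adjusted p = 0.348). In all, 5 of the 13 probe sets had every KO array above every control array, 2 of Xaf1, 2 of Tnfsf10 and that of Daxx. Of all probe sets, 3.89% had this. For 1420412_at and 1443621_at every control array and 1 KO array were at background. The background was 7.40 to 9.29 units on the KO arrays and 6.20 to 8.15 units on the control arrays, and its part was not tested.

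**Figure D2:**
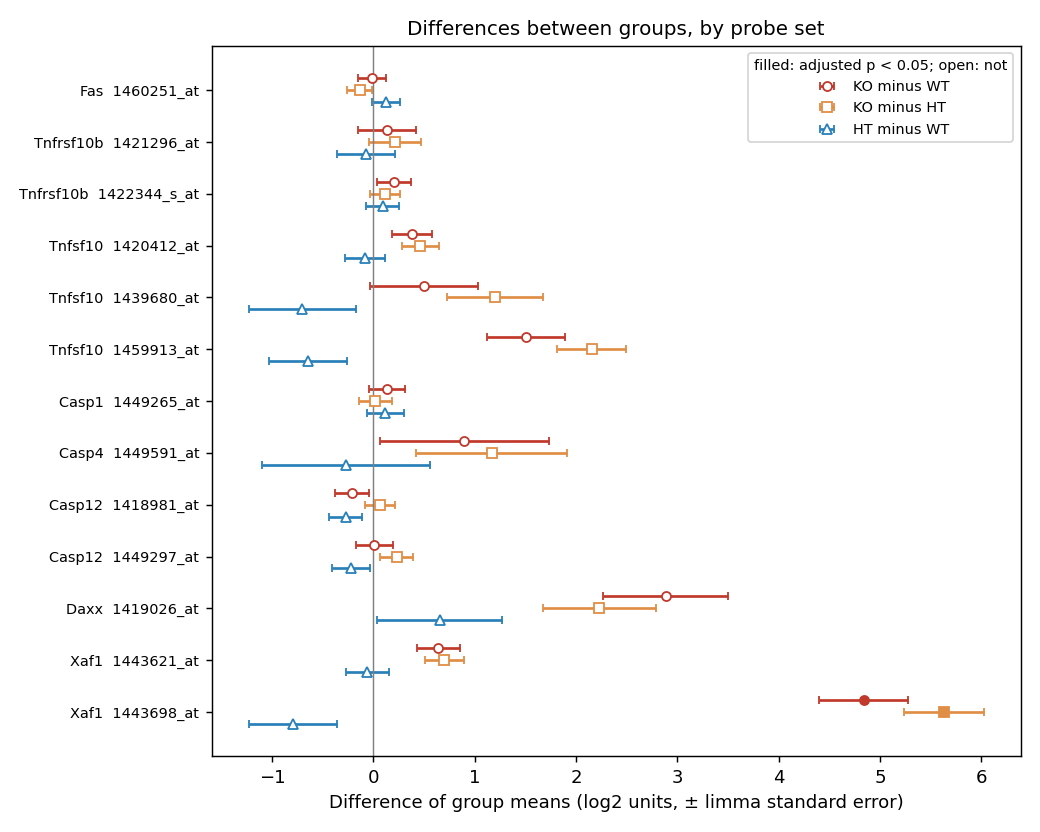
Difference of group means (log2 units, horizontal axis) for each probe set, with bars of 1 limma standard error; circles are KO minus WT, squares KO minus HT and triangles HT minus WT, filled where the adjusted p was under 0.05. The Xaf1 probe set 1443698_at alone is filled, at 4.84 and 5.63, and the Daxx differences of 2.89 and 2.23 are open.

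The 3 inflammatory caspases showed no difference that passed. Casp4, which senses cytosolic lipopolysaccharide in the mouse, read 20.4, 58.2 and 7.26 units in KO, against 7.71, 11.2 and 8.80 units in HT and 7.05 and 17.1 units in WT. KO array 3 was at background and below most controls, while KO array 2 was the brightest of the 8, so that the groups overlapped. The difference from all controls was 1.06 ± 0.62 log2 units (limma, adjusted p = 0.551); without KO array 2 it was 0.31 and without KO array 3 it was 1.81. Against WT and HT the differences were 0.90 ± 0.83 and 1.17 ± 0.74 log2 units (limma, adjusted p = 0.847 and 0.551).

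Casp1, the protease that matures interleukin-1 beta, was above background on 1 of 8 arrays, HT array 1. It read 6.73, 5.75 and 6.72 units in KO and 4.90 to 6.89 units in the controls, and the groups overlapped. Casp12 was above background on 0 of 8 arrays by either of its 2 probe sets, which read 5.08 to 7.11 units in KO and 4.66 to 6.93 units in the controls. These readings give no level for either gene, and a fold between groups at background is not given. Casp1, Casp4 and Casp12 are neighbours on chromosome 9 and are related in sequence, and whether their probes also bind each other's transcripts was not tested.

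Both receptors read at or near background. Fas was above background on 0 of 8 arrays, with 4.28, 4.29 and 5.16 units in KO and 4.51 to 5.06 units in the controls. Fas and Casp12 were the 2 of 8 genes above background on no array, as were 18% of all genes. Tnfrsf10b, by its brighter probe set 1422344_s_at, read 8.62, 8.64 and 7.54 units in KO, against 6.51, 7.92 and 8.64 units in HT and 7.23 and 7.08 units in WT. It was above background on 1 of 3 KO arrays and 4 of 5 control arrays, and the groups overlapped. KO differed from all controls by 0.15 ± 0.13 log2 units (limma, adjusted p = 0.673). Its other probe set read 5.62 to 8.13 units in KO and 4.35 to 7.78 units in the controls.

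Loss of 1 Adar copy was compared with wild type across the same genes. By limma 0 of 8 genes passed in either direction, 0 had an unadjusted p under 0.05, and over all genes the shares were 0% adjusted and 5.9% unadjusted. Xaf1 differed by -0.79 ± 0.44 log2 units between HT and WT (limma, adjusted p = 0.893), Tnfsf10 by -0.65 ± 0.38 (0.895), Casp4 by -0.27 ± 0.83 (0.977) and Daxx by 0.65 ± 0.62 (0.924). In 6 of the 13 probe sets every HT array was below every WT array, against 17.8% of all probe sets. These were 3 of Tnfsf10, 2 of Casp12 and the brightest of Xaf1, and both of Casp12 and 1 of Tnfsf10 were at background throughout HT and WT. The background itself was 6.20 to 6.98 units on the HT arrays and 7.09 and 8.15 units on the WT arrays, and its part in these low readings was not tested.

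Other genes of the same pathways were set beside the 8, by brightest probe set and in KO against all controls. Of 13 other death receptors, ligands and adaptors, 0 rose and 1 fell, where 0.379% of all genes fell. That gene was Faim, an inhibitor of Fas-induced apoptosis, which read 103, 111 and 116 units in KO and 190 to 203 units in the controls (-0.85 ± 0.10 log2 units; limma, adjusted p = 0.00923). The Faim call was lost with quantile (adjusted p = 0.0628) or cyclic loess normalization (-0.50 log2 units, 0.193), with the filter at the median level (0.0866) and with an intensity trend (0.380). The adaptor Fadd read 95.2, 23.1 and 28.5 units in KO and 86.1 to 462 units in the controls (-2.22 ± 0.62 log2 units, adjusted p = 0.236), and with the mean of its probe sets the difference was -0.87. The receptor Tnfrsf21 differed by -1.54 ± 0.46 log2 units (limma, adjusted p = 0.271). Casp8ap2, a partner of caspase-8, differed by 1.15 ± 0.43 (0.385), or 0.70 without KO array 3. The list had a median of -0.15 log2 units, beside 0.03 over all genes. Only 6 of the 13 genes were above background on every array, and Fasl was on 0 of 8, so some of these differences rest on background.

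No other caspase or inflammasome gene passed in KO against all controls by limma, among 10 genes of the cell death caspases and 9 of the inflammasome. Apaf1, the scaffold of the apoptosome, read 25.9, 28.9 and 26.1 units in KO and 43.5 to 99.3 units in the controls. The groups did not overlap, and the difference of -1.49 ± 0.26 log2 units did not pass (limma, adjusted p = 0.0662) except without HT array 2 (0.00662). With the mean of its probe sets the Apaf1 difference was -0.86. Casp2, an initiator caspase, differed by 1.24 ± 0.41 log2 units (0.318), by 1.77 without KO array 3 (0.0460) and by 0.77 without KO array 1 (0.517). Bid, which links caspase-8 to mitochondria, read 20.3, 198 and 151 units in KO and 11.4 to 52.1 units in the controls (1.86 ± 0.80 log2 units, adjusted p = 0.432). KO array 1 lay within the controls; the Bid difference was 2.89 without that array and 0.28 with the mean of its probe sets. Gsdmd, the pore-forming substrate of inflammatory caspases, read 15.3, 63.9 and 194 units in KO and 7.01 to 31.2 units in the controls (2.18 ± 0.81 log2 units, adjusted p = 0.378, and 1.30 log2 units without KO array 3). Pycard, the adaptor of inflammasomes, differed by 0.88 ± 0.39 (0.443) and the sensor Naip5, near background, by 0.18 ± 0.14 (0.642). The medians were -0.20 for the cell death caspases and 0.12 for the inflammasome list. Above background on every array were 8 of the 10 cell death genes but only 1 of the 9 inflammasome genes. Il1a and Il18 were above background on 0 of 8 arrays. The inflammasome median therefore rests largely on readings near background and shows no absence of change.

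Among 9 other inhibitors of apoptosis and their antagonists, 0 passed by limma and the median was -0.35 log2 units, while Xaf1 on the same list was 5.32 higher. Diablo, which like Htra2 is released from mitochondria to block inhibitors of apoptosis, differed by -0.98 ± 0.50 log2 units (limma, adjusted p = 0.501). The Diablo difference was -0.34 without KO array 3 and -1.50 without KO array 2. Htra2 differed by -0.77 ± 0.39 (0.495); its control groups lay apart, and KO differed by -1.23 ± 0.25 from HT (0.140) and by -0.08 ± 0.28 from WT (0.961). Birc5, survivin, differed by -0.85 ± 0.34 (0.406), by -1.12 without WT array 2 (0.0182) and by -0.50 with cyclic loess normalization (0.664).

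Of 9 partners of Daxx, 2 rose in KO against all controls, both of the PML nuclear body, where 0.555% of all genes rose. Both also passed against HT, and Sp100 against WT, where Pml did not (limma, adjusted p = 0.0909). Sp100 was higher than all controls by 5.15 ± 0.33 log2 units (limma, adjusted p = 0.000536), with 2 of 5 control arrays above background. Pml, the scaffold of these bodies, read 138, 125 and 171 units in KO and 14.5 to 35.8 units in the controls (2.56 ± 0.30 log2 units; limma, adjusted p = 0.0109). The Pml call was lost with array weights (0.0659) and with the mean of its probe sets (1.66 log2 units, 0.168). Map3k5, the kinase ASK1 that Daxx activates, read 334, 163 and 278 units in KO and 73.8 to 117 units in the controls (1.44 ± 0.26 log2 units, adjusted p = 0.0761). Its adjusted p was 0.0185 without KO array 2, and with the mean of its probe sets the difference was 0.27 log2 units (0.679). Atrx, with which Daxx deposits histone H3.3, was among the 7 that did not pass. It read 397, 252 and 234 units in KO and 366 to 1412 units in the controls (-1.06 ± 0.43 log2 units, limma, adjusted p = 0.415). Atrx was not among the genes recomputed under the alternatives. The median of the 9 was 0.04.

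Of 12 interferon signalling factors, 4 rose in KO against all controls, where 0.555% of all genes rose, and 0 fell. The same 4 passed against HT and 2 of them, Irf7 and Stat2, against WT, where Irf1 had an adjusted p of 0.0652 and Irf9 of 0.0748 (limma). Irf7 read 249, 175 and 632 units in KO and 6.04 to 7.18 units in the controls (5.51 ± 0.37 log2 units; limma, adjusted p = 0.000619), with 3 of 5 control arrays above background. Stat2 was higher by 3.94 ± 0.20 log2 units (limma, adjusted p = 0.000166), Irf1 by 3.58 ± 0.38 (0.00728) and Irf9 by 2.91 ± 0.32 (0.00849). Irf7 was brightest on KO array 3, where Xaf1 was dimmest among the KO arrays. The median of the 12 was 0.24.

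**Figure D3:**
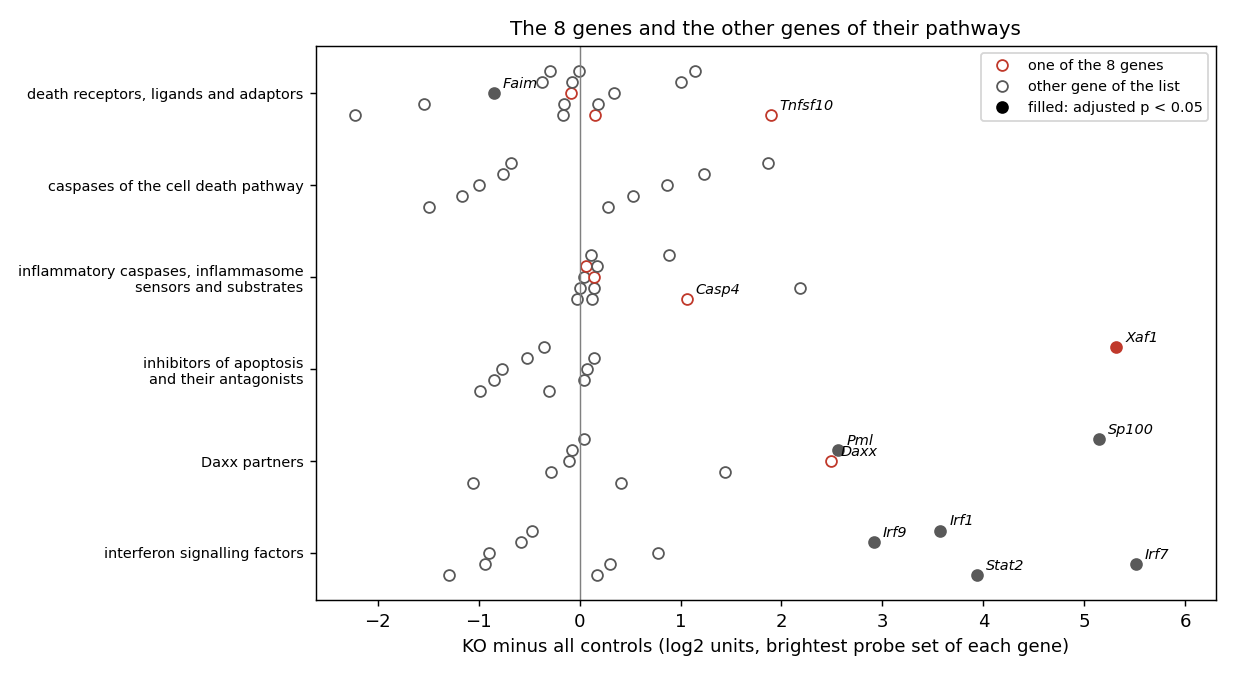
KO minus all controls (log2 units, horizontal axis) for each gene of the 6 lists by its brightest probe set; red points are the 8 genes, grey points the other genes of a list, filled where the adjusted p was under 0.05. Xaf1 at 5.32 stands apart from the 9 other inhibitors of apoptosis and antagonists, and Sp100 at 5.15 and Pml at 2.56 are the filled Daxx partners.

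Markers of other fetal liver cells were read on the same arrays, since macrophages express several of these genes. The summed intensity of 8 macrophage markers was 49.0 to 57.1 units in KO and 129 to 663 units in the controls, highest on WT array 2. Of the 8, 7 were at background on every KO array, and Adgre1 and Vsig4 were at background on all arrays. By limma 0 of the 8 passed in KO against all controls. WT array 2, with the highest sum of macrophage markers, was also the control array that read highest for Tnfsf10 and Casp4. Most of its sum was C1qb (434 units) and C1qc (152 units). Csf1r (36.5 units) and Mrc1 (12.4 units) read lower on it than on every HT array. The part of these markers was not tested. The sum of 6 T and NK cell markers was 135 to 160 units in KO and 105 to 175 units in the controls, with Cd3g at background on all arrays. Most of that sum was Ptprcap, at 99.6 to 125 units in KO and 74.8 to 143 units in the controls. The sum of 7 granulocyte markers was 62.5 to 202 units in KO and 134 to 338 units in the controls, with Ctsg at background on all arrays. Erythroid markers (4) summed to 362 to 419 units in KO and 193 to 493 units in the controls, and endothelial markers (6) to 374 to 531 units in KO and 194 to 373 units in the controls, with Emcn at background throughout. The 5 hepatocyte markers summed to 42.3 to 62.9 units in KO and 185 to 1041 units in the controls, and of them Afp fell (-5.11 log2 units; limma, adjusted p = 0.0403). The part of these shifts in the results was not tested.

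**Figure D4:**
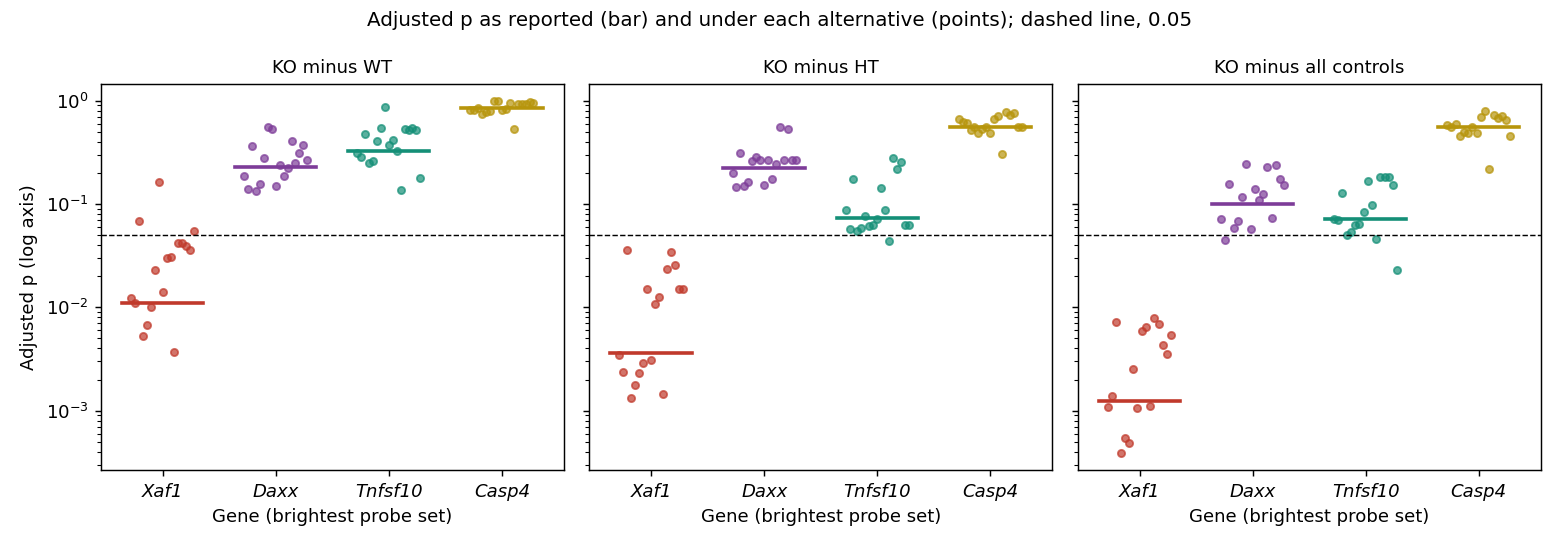
Adjusted p (log axis) of 4 of the genes in KO against WT, HT and all controls, as reported (bars) and under each alternative of normalization, filter, model or left-out array (points); the dashed line is 0.05. Xaf1 lies under the line throughout against HT and all controls and crosses it against WT at up to 0.163, while Casp4 lies above it throughout.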

How the data were processed

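Expression was measured on 8 arrays of sorted cells, 1 mouse each. RNA was labelled with biotin by a Nugen kit, per the labels' protocols. The authors deposited linear intensity for each probe set, summarised with RMA per the submitters' processing notes, which give no version. No per-sample column was left unused (0), and the number of arrays limits the precision. The intensities went to the log2 scale with nothing added, 64 control probe sets were left out, and 45037 were tested with limma 3.58.1 on R 4.3.3 (lmFit, eBayes without trend; 5 residual degrees of freedom for 3 groups, 6 for KO against all controls). Tests were two-sided, with Benjamini-Hochberg adjustment over all 45037 and a threshold of 0.05. A gene was represented by the probe set of highest mean log2 value among those naming it alone. Errors of differences are limma standard errors, of means SD over mice. A group is at background where no array exceeds its Bacillus controls.

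Members, lists and markers were chosen with earlier results of these data known. Named beside the 8 genes were the 3 genes of each list with the largest difference from all controls, any that passed, and the 3 nearest to a member that passed; Atrx and genes named only as at background or as markers were named outside this rule. Genes without a probe set of their own were not analysed here. On simulated data with the same groups, KO against all controls called 40%, 68%, 98% and 96% of 50 probe sets shifted by 1, 2, 4 and 6 log2 units, and 15 unshifted ones among 45037.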

Additional observations from a re-analysis of the deposited data

Results flagged for a closer look

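Of the 13 probe sets, 1 had a control array far from the other controls, where chance flags about 1 in 20 groups. Tnfsf10, by its brightest probe set, read 14.5 units on WT array 2, against 7.46 units on the next brightest of the 5 control arrays, and the gap was 0.767 of the range of log2 values over the controls. Without that array the Tnfsf10 difference between KO and all controls was 2.11 log2 units and passed the threshold (limma, adjusted p = 0.0228). Macrophage markers summed to 663 units on the same array, mostly through C1qb and C1qc, and their part was not tested.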

How the results depend on the processing

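The 20 differences of Tnfrsf10b, Tnfsf10, Casp4, Daxx and Xaf1 were recomputed under 335 combinations of difference and alternative, and 326 kept their direction and side of the threshold. Of the others, 3 lost the call, all of Xaf1 against WT, and 4 gained it, 3 of Tnfsf10 and 1 of Daxx. A further 2 changed sign: Tnfrsf10b in KO against HT was -0.0034 log2 units without HT array 1, in a range up to 0.20 with 1 array left out, and Casp4 in HT against WT was 0.37 without WT array 2, in a range down to -0.91. The number of the 8 genes past the threshold was 0 in KO against WT with 32 units added and with the arrays of both groups alone, and 2 in KO against all controls with cyclic loess. With 1 array left out it ran from 0 to 1 against WT, 1 to 2 against HT and 1 to 2 against all controls, and in HT against WT it was 0 under every alternative. The filters on dim probe sets left 5 of the 8 genes to test. Over all probe sets, 262 passed in KO against all controls, with 156 without HT array 1 and 792 without KO array 2; 226 passed against HT (63 and 581 without the same arrays) and 147 against WT, with 4 on the arrays of both groups alone and 340 without WT array 1. In HT against WT 1 probe set passed, and 164 did without WT array 1. The causes were not tested. For the 22 other genes named, alternatives were added after seeing the data, and 341 of 351 kept direction and side, with 6 calls lost and 4 gained. No paired analysis was possible because the labels number no replicates across groups. Readings near background limit what can be said of Fas, Casp1, Casp12 and Tnfrsf10b.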
